A study of Mus musculus with 10 samples.

Results

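Levels of 10 genes for immediate early transcription factors were described in cultured mouse microglia: the AP-1 genes Fos, Fosb, Jun, Junb, Jund and Atf3, the early growth response genes Egr1, Egr2 and Egr3, and the orphan nuclear receptor gene Nr4a1. They were chosen by name and matched by symbol to the 55471 genes of each count table, and all 10 were among the 19263 genes that passed the filter on low counts. The cells were primary cultures of microglia, macrophages that live in the brain, prepared from wild-type mice and kept in medium with serum. In 5 libraries the cells had received gapmers directed against the long noncoding RNA 3222401L13Rik, and in 5 libraries they had received control gapmers. A gapmer is a short antisense oligonucleotide that directs RNase H to cut the RNA it binds. Total RNA was sequenced, and the values are read counts per gene. Whether replicates were grown from different animals or cultures is not stated in the labels, and a p-value here measures only the spread between libraries, which may be technical.

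Immediate early genes are transcribed within minutes of a stimulus and need no new protein for it, because the factors that switch them on are already in the cell and are activated by phosphorylation. MAP kinases act through serum response factor and its ternary complex partners, which bind the CArG box, and through CREB-type factors, which bind the cAMP response element (CRE). Fos and Jun proteins pair through leucine zippers to form AP-1, Egr proteins bind GC-rich sites through zinc fingers, and Nr4a proteins act without a known activating ligand. In microglia these genes are known to respond to tissue dissociation, to phagocytosis and to ligands of pattern recognition receptors.

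The promoters of 5 of the genes are shown because they carry matches to 1 or more elements of these kinds, and because they span the range of levels described further on. RefSeq (GRCm38.p6) gave 12 windows for 8 of the genes, each from 250 bases before to 50 bases after a transcription start. Capitals mark matches on either strand to the CRE half-site TGACG, the AP-1 site TGANTCA, the Jun-type AP-1 variant TGACATCA, the CArG box, the TATA box TATAAA and the Egr site GCGNGGGCG, and no 2 matches overlapped in these windows. Lines give the window at chr1:191183284-191183583 (minus strand) for Atf3, chr4:95052173-95052472 (minus) for Jun, chr10:67537619-67537918 (plus) for Egr2, which is 1 of 5 for that gene, chr12:85473640-85473939 (plus) for Fos and chr15:101266596-101266895 (plus) for Nr4a1.
Atf3: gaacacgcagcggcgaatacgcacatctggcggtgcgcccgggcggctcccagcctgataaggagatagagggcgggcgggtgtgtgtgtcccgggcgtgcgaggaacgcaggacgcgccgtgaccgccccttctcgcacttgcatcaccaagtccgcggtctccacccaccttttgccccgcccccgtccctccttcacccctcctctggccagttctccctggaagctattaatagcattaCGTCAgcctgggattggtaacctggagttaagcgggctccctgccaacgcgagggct
Jun: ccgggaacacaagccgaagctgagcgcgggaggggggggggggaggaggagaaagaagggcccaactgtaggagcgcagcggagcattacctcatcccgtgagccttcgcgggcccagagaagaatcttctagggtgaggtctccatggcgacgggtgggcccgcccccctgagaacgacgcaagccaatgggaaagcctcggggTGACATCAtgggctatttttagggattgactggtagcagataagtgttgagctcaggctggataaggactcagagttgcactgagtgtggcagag
Egr2: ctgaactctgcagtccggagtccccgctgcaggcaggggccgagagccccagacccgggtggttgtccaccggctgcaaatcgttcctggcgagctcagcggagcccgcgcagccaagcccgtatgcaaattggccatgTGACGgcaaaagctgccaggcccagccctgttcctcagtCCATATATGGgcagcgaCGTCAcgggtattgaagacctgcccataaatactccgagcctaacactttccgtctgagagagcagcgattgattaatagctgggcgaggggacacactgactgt
Fos: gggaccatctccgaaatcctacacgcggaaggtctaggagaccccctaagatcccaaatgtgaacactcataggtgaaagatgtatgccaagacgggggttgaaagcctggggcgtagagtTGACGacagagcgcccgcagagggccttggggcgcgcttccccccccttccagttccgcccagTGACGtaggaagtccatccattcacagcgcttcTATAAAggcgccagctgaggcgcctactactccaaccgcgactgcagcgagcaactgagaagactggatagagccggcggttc
Nr4a1: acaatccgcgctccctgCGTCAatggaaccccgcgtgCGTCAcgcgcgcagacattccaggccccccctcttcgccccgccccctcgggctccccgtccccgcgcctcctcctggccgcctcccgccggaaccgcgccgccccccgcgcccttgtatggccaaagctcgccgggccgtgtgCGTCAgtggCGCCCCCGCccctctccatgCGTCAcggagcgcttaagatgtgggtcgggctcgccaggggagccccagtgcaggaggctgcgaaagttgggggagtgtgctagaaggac

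The Fos window held CRE half-sites that began 129 and 66 bases before the start, and a TATA box 33 bases before it. Jun had the variant AP-1 site 45 bases before its start. In Egr2 a CArG box stood 72 bases before the start, between CRE half-sites at 111 and 55 bases. Nr4a1 had 4 CRE half-sites, at 233, 213, 69 and 40 bases, and an Egr site at 60 bases, while Atf3 had 1 CRE half-site at 7 bases. Of all 32851 windows of this length, 20.8% held the CRE half-site, 7.81% the AP-1 site, 3.62% the variant AP-1 site, 1.63% the CArG box, 13.6% the TATA box and 5.55% the Egr site. These are matches of letters and not measured binding.

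Libraries labelled knockdown held 5593627 to 6636082 reads in genes, and control libraries 4321316 to 5639040 reads. The targeted RNA was not lower beyond its spread: 3222401L13Rik had 29.2 ± 6.53 reads in knockdown-labelled and 30.8 ± 2.59 reads in control libraries (SD, n = 5 each), and its log2 fold change was -0.17 (SE 0.23, adjusted p = 0.541 by edgeR). Directions below are therefore those of the label. Reads in 1135 olfactory receptor genes, which have their role in the nose, serve as a measure of background. Their density was 0.257 ± 0.0674 RPKM in knockdown-labelled and 0.599 ± 0.147 RPKM in control libraries (SD, n = 5 each). A two-sided exact permutation test gave p = 0.00794, the smallest this design allows. Multiplying the density by a gene's exon length predicts its background reads, and the share these make of its reads is called its background share. For 3222401L13Rik that share was 33.8% in knockdown-labelled and 61.4% in control libraries, its reads above prediction were 19.3 ± 6.599 and 11.9 ± 4.59 (SD, n = 5 each), and with predicted reads subtracted and scaling on genes under a 5% share its log2 fold change was 0.32 (SE 0.38, edgeR adjusted p = 0.633). The 12 microglial markers together had 3700.0 to 4292 counts per 1000000 reads (CPM) in knockdown-labelled and 3024 to 3640 CPM in control libraries, though Tmem119 was at only 2.72 and 2.84 CPM. Border macrophage and monocyte markers (6 genes) had 687 to 799.7 and 554 to 670.0 CPM, of which Mrc1 made up most, astrocyte markers (7 genes) 152 to 187 and 159.5 to 178 CPM, and oligodendrocyte lineage markers (7 genes) 96.7 to 104 and 94.2 to 107 CPM. Neuronal markers (6 genes) were at 19.4 to 30.15 CPM in knockdown-labelled libraries and 37.15 to 57.35 CPM in control libraries, and fibroblast and endothelial markers (7 genes) at 19.6 to 27.8 and 29.1 to 42.8 CPM, with background shares of 54.2% and 52.5%. None of these markers was at 0 reads over all libraries, and the part of other cells in the results was not tested. In such bulk RNA, fewer cells of a type and less RNA per cell cannot be told apart.

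Atf3 was the most abundant of the 10 transcripts per length, and 3 genes were barely read. Levels were compared as CPM scaled by the trimmed mean of M-values (TMM) and divided by kilobases of exon. On this scale Atf3, a CREB-family factor that is induced by stress and restrains inflammatory genes, averaged 185 ± 9.74 in knockdown-labelled and 150.0 ± 9.21 in control libraries (SD, n = 5 each), and 0.821% of tested genes stood above it. Jun, the main partner in AP-1 dimers, averaged 67.7 ± 4.10 and 54.0 ± 4.89 in the same groups. Jund, a Jun protein that many resting cells express, averaged 32.9 ± 4.09 and 25.0 ± 1.28, and Junb, which often opposes Jun, 31.4 ± 3.29 and 25.5 ± 3.80. Egr2, an Egr factor that macrophages use during growth and differentiation, averaged 24.95 ± 1.84 and 23.3 ± 1.53, and Fos, the founding immediate early gene, 20.8 ± 1.51 and 17.6 ± 2.73. These 6 genes all lay among the upper 10.9% of tested genes. Egr1, the best known sensor of mitogens among them, averaged 4.78 ± 0.584 and 4.54 ± 0.722, with 36.6% of tested genes above it. Nr4a1 averaged 0.821 ± 0.170 and 1.47 ± 0.277, Fosb, a Fos protein with a strong activation domain, 0.794 ± 0.210 and 1.34 ± 0.247, and Egr3, which Egr1 can induce, 0.764 ± 0.122 and 1.18 ± 0.467.

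**Figure D1:**
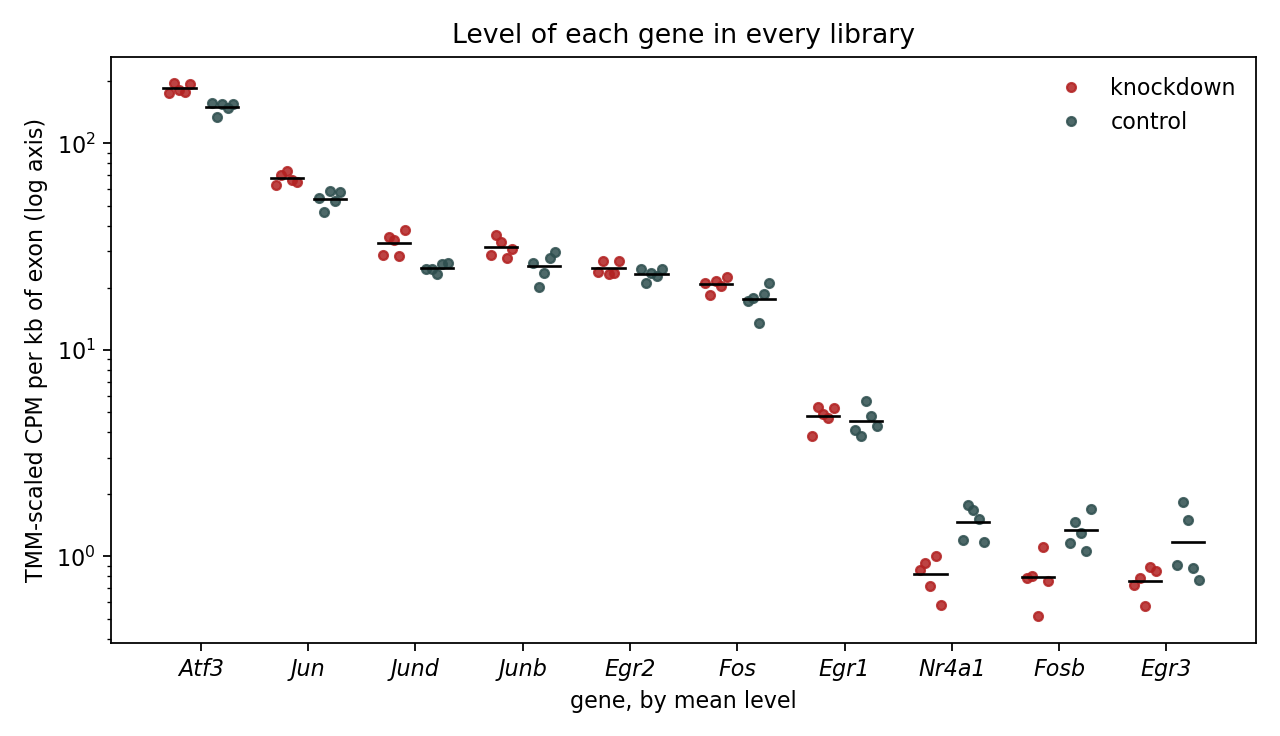
Level of each gene in every library, as TMM-scaled CPM per kilobase of exon on a log axis. Knockdown-labelled libraries stand left of control libraries, each point is 1 library and each line a group mean (n = 5), and the genes fall into a range from Atf3 at 135 to 196 down to Egr3 at 0.575 to 1.84.

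Neighbours in this order were separated at 4 steps. Atf3 was above Jun, Jun above Jund, Fos above Egr1 and Egr1 above Nr4a1 in 10 of 10 libraries, with no overlap over all libraries, and the means differed 2.75-, 2.1-, 4.13- and 4.07-fold. Jund and Junb could not be ordered, since Jund was higher in 4 of 10 libraries. Junb stood above Egr2 in 8 of 10 libraries and Egr2 above Fos in 10 of 10, with overlapping ranges. Nr4a1 was above Fosb in 7 of 10 libraries and Fosb above Egr3 in 6 of 10, so the 3 lowest genes did not differ beyond their spread. Exon lengths here are unions over all annotated transcripts, which lowers the level of genes with long alternative forms such as Fosb (6243 bases of exon).

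Within the Jun, Fos and Egr families 1 gene held most of the level. Of the summed per-length level of the Jun genes, Jun held 51.4 ± 2.17% in knockdown-labelled and 51.7 ± 2.40% in control libraries, Junb 23.8 ± 1.09% and 24.3 ± 2.04%, and Jund 24.9 ± 2.00% and 24.0 ± 1.84% (SD, n = 5 each). Of the Fos genes, Fos held 82.2 ± 2.31% and 76.7 ± 3.26%, and Fosl2, a Fos protein with a weak activation domain, 13.9 ± 1.77% and 15.9 ± 2.16%. Fosb held 3.15 ± 0.860% and 5.85 ± 1.00%, and Fosl1 had 29 reads in all libraries together. Of the Egr genes, Egr2 held 80.9 ± 1.06% and 78.5 ± 2.92% and Egr1 15.5 ± 1.33% and 15.2 ± 1.94%, so Egr2 and not Egr1 was the main Egr transcript. The Nr4a genes were more even, with Nr4a1 at 41.97 ± 7.25% and 35.0 ± 1.37%, Nr4a2 at 30.2 ± 12.1% and 36.0 ± 3.86%, and Nr4a3 at 27.8 ± 5.37% and 29.0 ± 4.23%. Shares of the weakly read genes include background reads, which were denser in the control libraries.

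The comparison of the labels asked whether these factors moved with the gapmer. In libraries labelled knockdown 5 of the 10 genes rose, namely Jund, Jun, Atf3, Junb and Fos, and 3 fell, namely Nr4a1, Fosb and Egr3, while Egr1 and Egr2 did not pass the test (adjusted p under 0.05 by edgeR's quasi-likelihood test). Of all 19263 tested genes 54.3% were called, 22.9% higher and 31.3% lower. The median log2 fold change was 0.17 for the 10 genes and -0.10 for all tested genes. The call followed the background share, as it did among all genes. Of the 4728 tested genes with a share under 5%, 75.5% were called higher and 0.486% lower, and of the 6 immediate early genes under that share 5 were called higher, which is near that background. Of the 3670 tested genes with a share of 30 to 50%, 64.9% were called lower and 0.0545% higher, and the 3 fallen genes all lay in that range. Genes under a 5% share had a median of 0.24, and the 6 immediate early genes under it a median of 0.30.

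**Figure D2:**
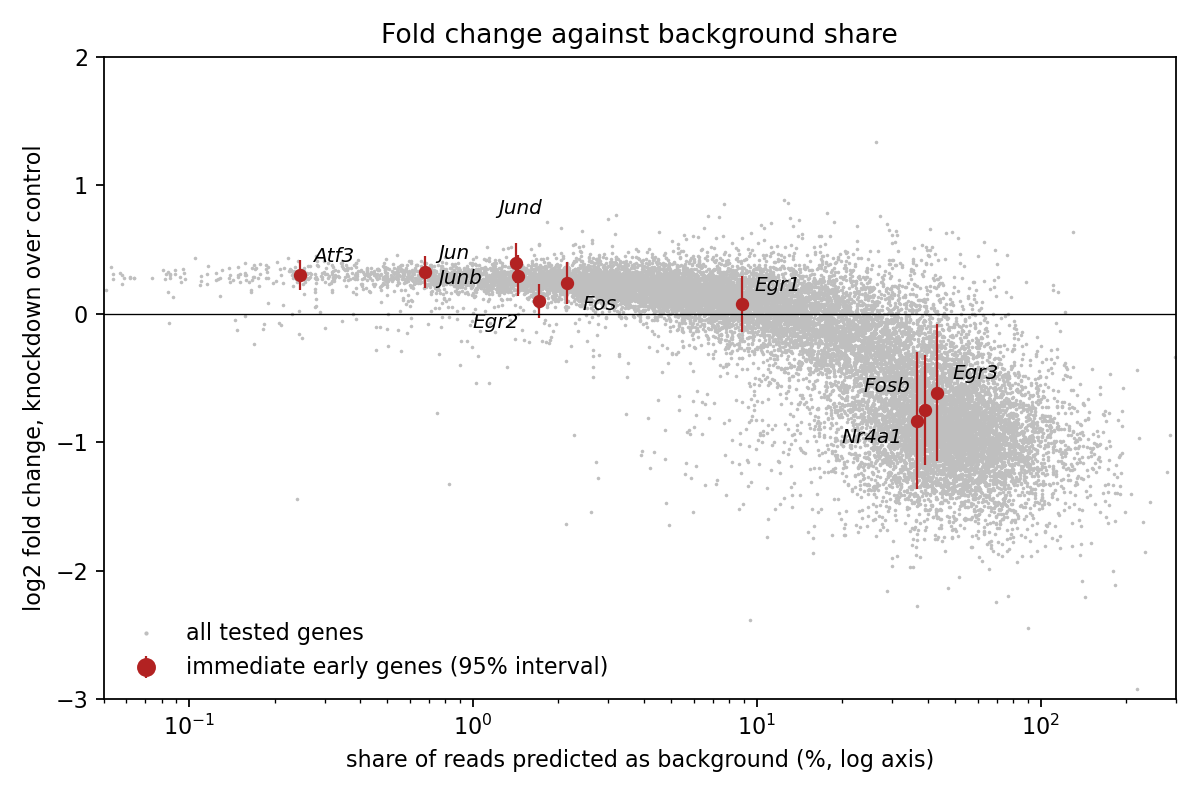
Log2 fold change, knockdown-labelled over control libraries, against the background share of each tested gene on a log axis. Grey points are tested genes and red points with 95% intervals are the 10 immediate early genes, which lie in the band of all genes: positive at shares of 0.246 to 8.84% and negative at 36.6 to 43.2%. Left out are 42 genes at or under a share of 0.05% and 2 genes over 300%.

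Rises among the AP-1 genes were of 1.18- to 1.32-fold. Atf3 was at 376, 421, 392, 382 and 419 CPM in knockdown-labelled replicates 1 to 5, against 338, 290.3, 335, 319 and 334 CPM in control replicates 1 to 5. The groups did not overlap, and the log2 fold change was 0.30 (SE 0.06, edgeR adjusted p = 3.47e-05). Jun was at 201, 223, 234, 213 and 208 CPM in knockdown-labelled libraries, against 173, 149, 187, 167 and 185 CPM in control libraries, again with no overlap, a log2 fold change of 0.32 (SE 0.06, edgeR adjusted p = 2.41e-05). Control replicate 2, the library with the highest background density, was the lowest of all 10 libraries for both genes, and without it they were at 0.27 and 0.29 and still called. Jund was at 48.0, 58.6, 56.7, 47.6 and 63.2 CPM in knockdown-labelled libraries, against 41.2, 40.9, 38.8, 43.5 and 44.1 CPM in control libraries. Every knockdown-labelled library was above every control library, and the log2 fold change of 0.40 (SE 0.08, edgeR adjusted p = 4.94e-05) was the largest rise of the 10 genes. Junb was at 66.4, 82.9, 76.5, 64.4 and 70.9 CPM in knockdown-labelled libraries, against 60.5, 46.1, 54.1, 64.1 and 68.4 CPM in control libraries. Here 3 knockdown-labelled libraries were above all controls and the groups overlapped, with a log2 fold change of 0.30 (SE 0.08, edgeR adjusted p = 0.00185). It was 0.51 (SE 0.10) among lane 7 libraries (3 against 3) and 0.05 (SE 0.12) among lane 8 libraries (2 against 2), lanes being read from the names of the deposited files. Fos was at 49.3, 43.6, 51.0, 47.9 and 53.0 CPM in knockdown-labelled libraries, against 40.4, 41.8, 31.8, 44.1 and 49.5 CPM in control libraries. Control replicate 3 was lowest for Fos while it was the highest control for Jun and Egr1. The log2 fold change of Fos was 0.24 (SE 0.08, edgeR adjusted p = 0.0132), and it lost its call without control replicate 3 (0.17, adjusted p = 0.0935).

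The rises depended on which genes set the scale between libraries. The median of all tested genes was at -0.10 with TMM, -0.24 with upper-quartile scaling, -0.30 with library totals and -0.34 when scaled on genes under a 5% background share. The share of rises among all calls moved with it, at 42.3%, 19.0%, 8.78% and 3.51%, and was 6.91% with background reads also subtracted. Scaled on genes under a 5% share, where 46.2% of all tested genes were called, 1.62% higher and 44.6% lower, none of the 5 rises was called by the edgeR test (1 of 10 genes, Jund, was higher at an unadjusted p under 0.05). Jund was then at 0.15 (SE 0.07, 95% interval 0.00 to 0.29, adjusted p = 0.0876), Jun at 0.08 (SE 0.04, adjusted p = 0.106), Atf3 at 0.05 (SE 0.03, adjusted p = 0.190) and Junb at 0.05 (SE 0.07, adjusted p = 0.544), while Fos turned to -0.01 (SE 0.08, adjusted p = 0.953). These 5 genes have background shares of 0.246 to 2.14% and so belong to the genes that set this scale. The scaling itself takes the median of that set from 0.24 to -0.0017, so the lost calls are not a separate check of the rises. A change of scaling moves all genes by nearly the same amount, and the intervals of Fos and Junb overlapped.

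**Figure D3:**
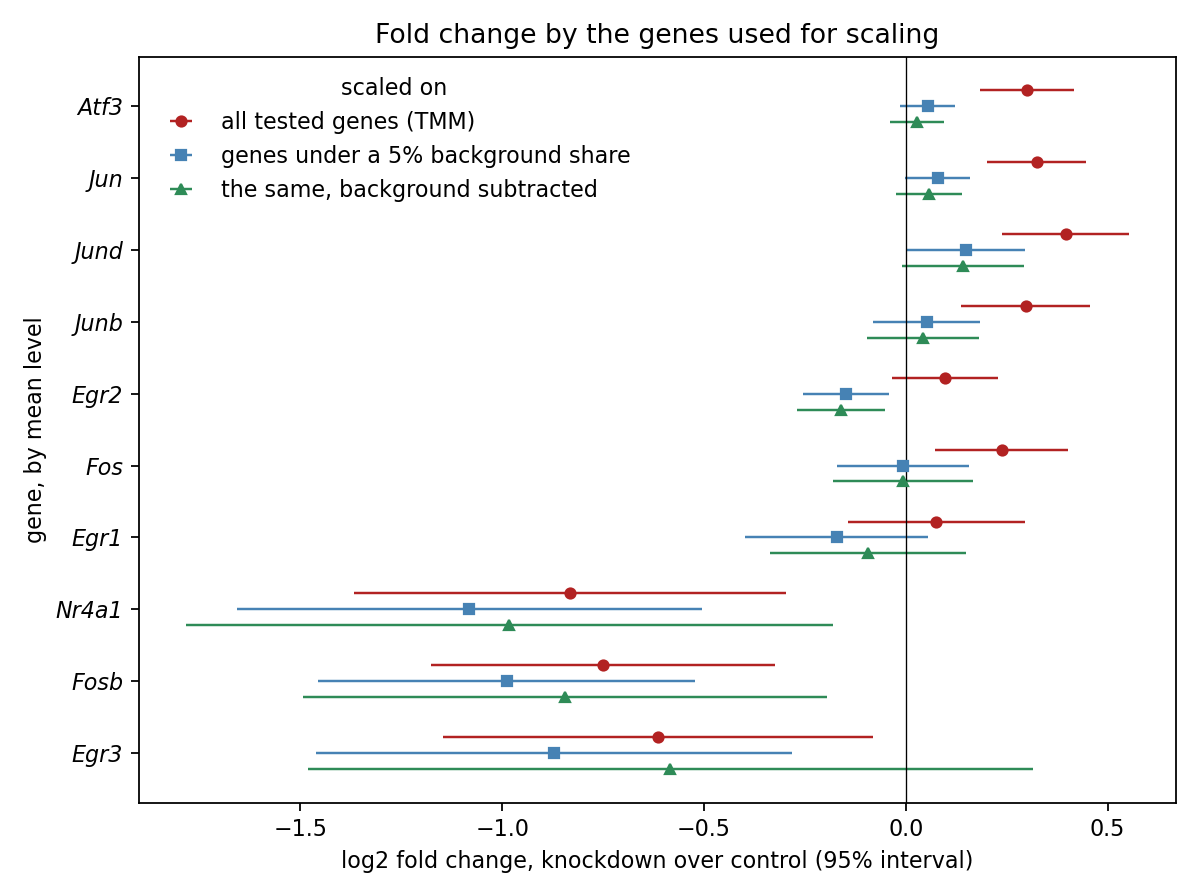
Log2 fold change, knockdown-labelled over control libraries, with 95% intervals for each gene under 3 fits: TMM over all tested genes (red), TMM on genes under a 5% background share (blue) and the same after subtraction of predicted background reads (green). The intervals of Jund, Jun, Atf3, Junb and Fos lie above 0 in the red fit, and in the green fit those 5 intervals span 0, with Fos turning to -0.01 in the blue and green fits.

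Egr2 and Egr1 did not pass the test. Egr2 was at 81.3, 91.8, 79.3, 80.1 and 91.3 CPM in knockdown-labelled libraries, against 83.8, 71.3, 80.2, 77.05 and 83.6 CPM in control libraries. Egr1 was at 17.2, 23.6, 21.9, 20.9 and 23.5 CPM in knockdown-labelled libraries, against 18.4, 17.2, 25.4, 21.6 and 19.1 CPM in control libraries. The groups overlapped for both genes, and their log2 fold changes were 0.10 (SE 0.07, 95% interval -0.03 to 0.23, edgeR adjusted p = 0.206) and 0.08 (SE 0.11, 95% interval -0.14 to 0.29, edgeR adjusted p = 0.574). The call of Egr2 depended on the setting. Without the filter on low counts it was called higher at 0.23 (SE 0.09, edgeR adjusted p = 0.0408). Both genes turned negative with upper-quartile scaling, library totals, a stricter filter and scaling on genes under a 5% share, and in that last fit Egr2 was called lower at -0.15 (SE 0.05, adjusted p = 0.0207), and it was called lower at -0.16 (SE 0.05, adjusted p = 0.0427) with background reads subtracted as well, where 13.8% of 14713 tested genes were called, 0.952% higher and 12.8% lower. Egr1 was at -0.17 (SE 0.11, adjusted p = 0.215) and -0.09 (SE 0.12, adjusted p = 0.670) in those fits.

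Ratios of 2 genes within a library need no scaling between libraries, and they were computed against Jun for the 6 other genes with a background share under 10%, a measure chosen after the data were seen. The log2 ratio of Egr2 to Jun was -1.35 ± 0.14 in knockdown-labelled and -1.12 ± 0.07 in control libraries (SD, n = 5 each), a difference of -0.23 (exact two-sided permutation test, p = 0.0159, adjusted p = 0.0952 over 6 ratios), and it was below all controls in 4 of 5 knockdown-labelled libraries. Without knockdown-labelled replicate 5, the library that was not below all controls, the adjusted p of this ratio was 0.0476. With any other library left out it was 0.0952 to 0.19 (exact permutation test). For Egr1 the ratio was -3.34 ± 0.15 and -3.09 ± 0.17, a difference of -0.25 (exact permutation p = 0.0476, adjusted p = 0.143), which was -0.15 with background reads subtracted. Neither ratio passed the correction. The other ratios differed less: by -0.03 for Atf3, 0.06 for Jund, -0.02 for Junb and -0.08 for Fos (exact permutation, adjusted p = 0.781 to 0.817).

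**Figure D4:**
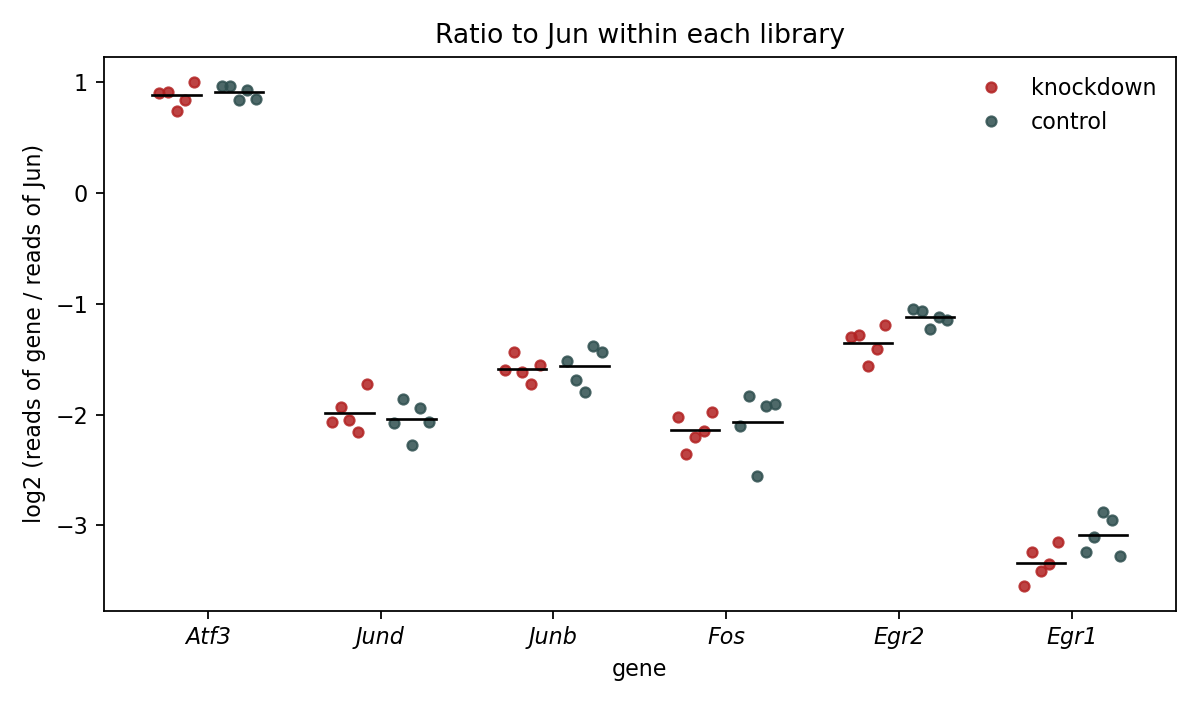
Log2 ratio of the reads of each gene to the reads of Jun in the same library, knockdown-labelled libraries left of control libraries, with 1 point per library and lines at group means (n = 5 each). For Egr2, 4 of 5 knockdown-labelled libraries lie below all controls, and for Junb and Fos the groups overlap fully.

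Nr4a1, Fosb and Egr3 fell, but on few reads. Nr4a1 had 16, 19, 15, 20 and 12 reads in knockdown-labelled libraries, against 23, 30, 32, 29 and 23 reads in control libraries. Its groups did not overlap, and the log2 fold change was -0.83 (SE 0.27, edgeR adjusted p = 0.00769). Fosb had 26, 29, 19, 39 and 28 reads in knockdown-labelled libraries, against 40, 44, 44, 36 and 59 reads in control libraries. Knockdown-labelled replicate 4 was above 1 control, and the log2 fold change was -0.75 (SE 0.21, edgeR adjusted p = 0.00285). Egr3 had 17, 20, 15, 22 and 22 reads in knockdown-labelled libraries, against 22, 39, 36, 21 and 19 reads in control libraries. Control replicates 2 and 3 stood above the rest, the log2 fold change was -0.61 (SE 0.27, edgeR adjusted p = 0.0461), and the call was lost without control replicate 2 (-0.40), control replicate 3 (-0.50) or any 1 of knockdown-labelled replicates 1, 2, 3 and 5 (-0.63 to -0.51). The call was also lost with lane as a covariate (-0.59, adjusted p = 0.0609), with limma-voom (-0.53, adjusted p = 0.0811), with DESeq2 (-0.55, adjusted p = 0.0913) and without the filter on low counts (-0.48, adjusted p = 0.157). Egr3 was at 0.09 in lane 8 alone and -0.99 in lane 7 alone.

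The background density predicted 36.6% of the reads of Nr4a1, 39.2% of those of Fosb and 43.2% of those of Egr3. All 3 were above their prediction in 10 of 10 libraries. Reads above it were 10.9 ± 2.69 in knockdown-labelled and 16.9 ± 3.15 in control libraries for Nr4a1, 18.4 ± 5.69 and 25.9 ± 10.8 for Fosb, and 12.3 ± 2.83 and 14.2 ± 8.22 for Egr3 (SD, n = 5 each). On the TMM scale the olfactory receptor density itself had a log2 ratio of -1.03, knockdown-labelled over control. The ratio was -1.13 for vomeronasal receptor genes and -0.97 for keratin genes. All of these lie beyond the falls of the 3 genes with TMM. With predicted reads subtracted and scaling on genes under a 5% share, Nr4a1 was at -0.98 (SE 0.40, edgeR adjusted p = 0.0925), Fosb at -0.84 (SE 0.32, adjusted p = 0.0727) and Egr3 at -0.58 (SE 0.44, adjusted p = 0.417), and none was called. Unadjusted edgeR p in that fit was 0.0178 for Nr4a1, 0.0123 for Fosb and 0.196 for Egr3. With TMM their SEs were smaller, at 0.27, 0.21 and 0.27. The shares depend on the class of genes used: for Nr4a1 the share was 23.0% from 331 vomeronasal receptor genes and 79.1% from 53 keratin genes, for Fosb 24.7% and 84.6%, and for Egr3 27.2% and 93.3%. The part of background in these 3 falls was not tested beyond this.

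**Figure D5:**
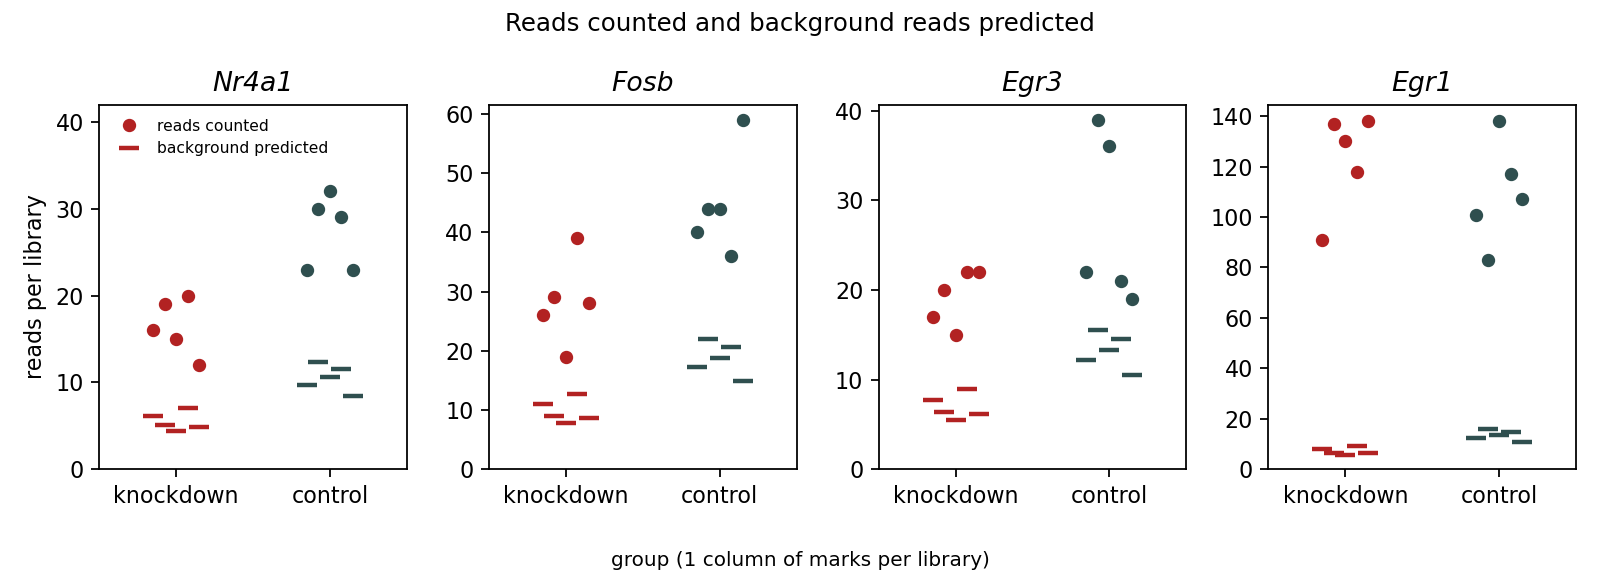
Reads counted (points) and background reads predicted from olfactory receptor genes (dashes) for Nr4a1, Fosb, Egr3 and Egr1 in each library, knockdown-labelled left and control right, on linear axes from 0. Predicted reads are lower in every knockdown-labelled library than in every control library, and counted reads exceed them in all 10 libraries for each gene.

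Lists of related genes were counted beside all tested genes. Scaled on genes under a 5% background share, 1.62% of all tested genes were called higher and 44.6% lower. With background reads also subtracted, 0.952% of 14713 genes were called higher and 12.8% lower. With TMM, the fit used below unless another is named, 22.9% of all tested genes were called higher and 31.3% lower. Of those under a 5% background share, TMM gave 75.5% higher and 0.486% lower. Of 14 AP-1 partners 13 were tested, 4 rose, 0 fell (edgeR, likewise 0 at an unadjusted p under 0.05 and 0 with DESeq2) and 9 were not called, with a median log2 fold change of 0.16. The rises included Maf (0.29, SE 0.06), a gene for a factor that shapes macrophage identity, and the stress response factor gene Atf4 (0.29, SE 0.06). Their background shares were 0.498 to 0.736%, and scaled on genes under a 5% share they were at 0.05 and 0.04 and not called. In that fit 0 of the 13 were called higher (edgeR, 1 at an unadjusted p under 0.05) and 4 lower, namely Maff (-0.53), Jdp2 (-0.32), Fosl2 (-0.28) and Atf7 (-0.24), all named after their values were seen, and the list's median was -0.09. With background reads also subtracted, none of these 4 kept its call (edgeR adjusted p = 0.0906 to 0.286), and the list's median was -0.02.

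Of 5 Egr and Nr4a relatives and cofactors 4 were tested, and 2 rose and 2 fell. The Egr corepressor genes Nab1 (0.25, SE 0.07) and Nab2 (0.22, SE 0.09) were called higher, but were at 0.00 and -0.03 when scaled on genes under a 5% share. The nuclear receptor genes Nr4a3 and Nr4a2 fell. Nr4a3 had 18, 21, 20, 22 and 12 reads in knockdown-labelled libraries, against 31, 39, 52, 49 and 26 reads in control libraries, a log2 fold change of -1.17 (SE 0.25, edgeR adjusted p = 1.07e-04). Nr4a2 had 25, 5, 11, 20 and 11 reads in knockdown-labelled libraries, against 32, 34, 34, 32 and 29 reads in control libraries, a log2 fold change of -1.24 (SE 0.28, edgeR adjusted p = 2.74e-04). Groups did not overlap for either gene, as for Nr4a1. Predicted background reads were also lower in every knockdown-labelled library than in every control library. This holds for any gene, because the prediction is the density of the library multiplied by exon length. Of tested genes at a background share of 30 to 50%, 64.9% were called lower, and how many had groups without overlap was not counted. With background reads subtracted, where 12.8% of tested genes were called lower, Nr4a3 and Nr4a2 were still called. They were at -1.56 (SE 0.41, edgeR adjusted p = 0.0104) and -1.62 (SE 0.49, adjusted p = 0.0241). Few reads remain: in knockdown-labelled replicate 2 Nr4a2 had 5 reads against 5.83 predicted and was set to 0. Background shares of Nr4a3 and Nr4a2 were 47.2% and 39.8% from olfactory receptors, and 101.9% and 86.0% from keratins, so the subtraction depends on the class.

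Genes that carry signals to immediate early promoters were called in directions that depended on the scaling. Of 11 upstream factors (SRF, ternary complex and CREB genes) 3 rose, 0 fell (edgeR, 0 also at an unadjusted p under 0.05 and with DESeq2) and 8 were not called, with a median of 0.14. The rises were those of the ternary complex factor gene Elk4 (0.33, SE 0.07), the SRF coactivator gene Mrtfb (0.29, SE 0.06) and Creb1 (0.16, SE 0.07), and Srf itself was at 0.06 (SE 0.09). Scaled on genes under a 5% share, 0 of the 11 were called higher (edgeR, 0 also at an unadjusted p under 0.05) and 1 lower, the CREB coactivator gene Crtc3 (-0.32), named after its value was seen, with a median of -0.11. With background also subtracted, Crtc3 was at -0.23 (SE 0.10, edgeR adjusted p = 0.114) and not called. Of 20 MAP kinase cascade genes 15 rose, 1 fell and 4 were uncalled, at a median of 0.26, close to the 0.24 of all genes under a 5% share. Examples were the Ras gene Nras (0.35, SE 0.06) and the ribosomal S6 kinase gene Rps6ka3 (0.34, SE 0.06), and the fall was that of Rps6ka5 (-0.28, SE 0.12), a kinase of histones and CREB with a background share of 30.5%. In that same scaling 1 of the 20 was called higher and the median was 0.01, while 2 were called lower, Rps6ka5 (-0.53) and the p38 activator gene Map2k6 (-0.44), the last named after its value was seen. With background also subtracted, Rps6ka5 and Map2k6 were not called (edgeR adjusted p = 0.311 and 0.275). The 1 gene called higher was then Mapk8 (0.48, SE 0.14, edgeR adjusted p = 0.0194), named after its value was seen.

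Feedback inhibitors end the response that the immediate early genes begin. Of 16 feedback inhibitors 6 rose, 2 fell and 8 were uncalled, at a median of 0.14. Rises included the MAP kinase phosphatase gene Dusp4 (0.34, SE 0.06), the Ras pathway inhibitor gene Spred1 (0.31, SE 0.06) and the mRNA decay factor gene Zfp36l1 (0.31, SE 0.06). The falls were those of Spry4 (-0.64, SE 0.26, background share 42.2%) and the phosphatase gene Dusp2. Dusp2 had 10, 13, 7, 11 and 8 reads in knockdown-labelled libraries, against 18, 29, 21, 22 and 19 reads in control libraries, a log2 fold change of -1.24 (SE 0.31, edgeR adjusted p = 8.59e-04). It kept its call with background subtracted (-1.62, SE 0.45, adjusted p = 0.0139), with a background share of 29.0% from olfactory receptors and 62.6% from keratins. Scaled on genes under a 5% share, 0 of the 16 were called higher (edgeR, 0 also at an unadjusted p under 0.05) and 5 lower, with a median of -0.10. These were Dusp2, Spry4, Dusp10 (-0.58), Dusp16 (-0.26) and Zfp36, a gene for an mRNA decay factor, the last 3 named after their values were seen. Zfp36 had a background share of 1.94% and was at -0.19 (SE 0.06, adjusted p = 0.00523), and at -0.20 (SE 0.06, adjusted p = 0.0173) with background subtracted. Spry4, Dusp10 and Dusp16 lost their calls with background subtracted (edgeR adjusted p = 0.317, 0.323 and 0.250).

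Of 25 other immediate early genes 24 were tested, 14 rose, 1 fell and 9 were not called, with a median of 0.24. Scaled on genes under a 5% share, 4 were called higher (Sgk1, Tnfaip3, Mcl1 and Id2) and 2 lower (Arc and Ccn1), with a median of -0.01, Id2 and Ccn1 being named after their values were seen. With background also subtracted, only Sgk1 kept its call. Tnfaip3, Mcl1, Id2, Arc and Ccn1 then had edgeR adjusted p = 0.0827 to 0.296. The fall with TMM was that of the cytoskeletal gene Arc (-0.74, SE 0.31, background share 42.4%). Besides the NF-kB inhibitor gene Tnfaip3 (0.36, SE 0.06) and the survival gene Mcl1 (0.34, SE 0.06), the kinase gene Sgk1 rose. Sgk1, a target of glucocorticoids and serum, was at 72.4, 89.8, 71.4, 69.4 and 76.3 CPM in knockdown-labelled libraries, against 58.6, 48.6, 55.2, 56.0 and 54.6 CPM in control libraries, a log2 fold change of 0.47 (SE 0.07, edgeR adjusted p = 9.64e-07). It was called higher also when scaled on genes under a 5% share (0.23, SE 0.06, adjusted p = 0.00363) and with background subtracted (0.25, SE 0.07, adjusted p = 0.0118).

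Likeness between genes was measured as the root mean square difference of log2 CPM over the 10 libraries, after centring each group and scaling each gene to unit variance, among 12004 genes that averaged 5 CPM or more. The genes most like Fos were Erlec1 (0.294 SD), Dnajc19 (0.347 SD) and Kbtbd4 (0.348 SD), and those most like Jun were Szrd1 (0.191 SD), Ndufb10 (0.238 SD) and Ppp2cb (0.241 SD). Most like Egr1 were Mbd3 (0.324 SD) and Gm8513 (0.392 SD). Egr3 and Nr4a1 lay under that minimum. Of the other immediate early genes Atf3 (0.775 SD) and Junb (0.826 SD) were nearest to Jun, at ranks 1285 and 1712 of the 12004 genes, and Fos differed from Jun by 1.56 SD and from Egr1 by 1.72 SD. The closest genes were picked out of 12004 over 10 libraries, and how close genes lie by chance was not tested.

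Overlaps in the annotation limit 3 of the genes. Jun shares 232 bases of exon with the antisense gene Junos, which had 258 reads in all against 10796 for Jun, and Junb shares 173 bases with Prdx2 on the opposite strand, which had 5157 reads against 3644. Jund shares 877 bases with the antisense gene Gm11175, which was counted at 0 reads. The library kit marks strand, but no source used here gives the strand setting of the counting, and reads in shared bases could not be assigned. By GENCODE M21 (GRCm38) the genes lie on chromosome 12 at 85473890 to 85477273 (Fos, ENSMUSG00000021250), chromosome 7 at 19302696 to 19310051 (Fosb, ENSMUSG00000003545), chromosome 4 at 95049034 to 95052222 (Jun, ENSMUSG00000052684) and chromosome 8 at 84974484 to 84978718 (Junb, ENSMUSG00000052837) and 70698949 to 70700616 (Jund, ENSMUSG00000071076). Atf3 (ENSMUSG00000026628) lies on chromosome 1 at 191170296 to 191218039, Egr1 (ENSMUSG00000038418) on chromosome 18, Egr2 (ENSMUSG00000037868) on chromosome 10 at 67535475 to 67542188, Egr3 (ENSMUSG00000033730) on chromosome 14 at 70077203 to 70082614 and Nr4a1 (ENSMUSG00000023034) on chromosome 15 at 101254269 to 101274795.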

How the data were processed

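Per the submitters' processing notes, bcl2fastq was used and the genome build was mm10 (GRCm38). No source used here names the aligner, counter, strand setting or annotation. The deposited files hold raw whole-number counts per gene, 1 file per library. Of 55563 entries, 92 were ERCC spike-ins, which held at most 2 reads in any library and were dropped. Names and exon lengths came from GENCODE M21 for 55230 of 55471 genes, and the other 241 held 0.0107% of reads. The depth of 4321316 to 6636082 reads per library limits the precision of weakly read genes. Background density is in RPKM.

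Counts were filtered with filterByExpr, scaled with TMM and tested with edgeR 4.0.16 (robust quasi-likelihood, group as the only term) in R 4.3.3, with Benjamini-Hochberg adjustment over 19263 genes at 0.05. The test was run on simulated data without a difference in background between the groups. It found 14% of 50 genes changed 1.2-fold and 84% of 50 changed 3-fold, and called 7 of 18446 unchanged genes. Such data cannot show how the test behaves where background differs, as it does here. Alternatives used DESeq2 1.42.0, limma-voom (limma 3.58.1), other scalings and filters, lanes, a replicate block and libraries left out. Background subtraction rounded counts and set negative ones to 0. Ratios to Jun were added after the values were seen and used exact permutation tests, adjusted over 6.

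Genes, lists and tests were chosen with earlier results of these data known. Named were all 10 genes, the target, of each list the 3 called genes with the smallest p plus any count of 3 or fewer, and the 3 genes most like Fos, Jun and Egr1, of which some are not reported here. Genes named outside this rule, such as Srf, Tmem119, Mrc1 and Fosl1, were named after their values were seen. Figures were drawn with matplotlib 3.10.9.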

Additional observations from a re-analysis of the deposited data

How the results depend on the processing

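Against 5 genes called higher and 3 lower, the immediate early genes gave 3 and 3 under upper-quartile scaling, 3 and 3 under library totals, and 3 and 1 with a stricter filter of 5 CPM in 5 libraries, which left 8 of the 10. They gave 0 and 0 in lane 8 alone (edgeR, 3 higher and 0 lower at an unadjusted p under 0.05), 0 and 4 when scaled on genes under a 5% background share, and 0 and 1 with background also subtracted. Against 4418 genes higher and 6033 lower in all, those fits gave 1685 and 7195, 759 and 7888, 2057 and 2239, 67 and 153, 312 and 8589, and 140 and 1886 in the same order. DESeq2 gave 5 and 2 of the 10 genes, and no filter on low counts 6 and 2, with Egr2 called higher. Leaving out 1 library gave 4 to 5 genes higher and 2 to 3 lower, and 4032 to 5015 and 4928 to 6967 among all genes.

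Egr1 turned to -0.0711 under upper-quartile scaling, -0.13 under library totals, -0.0431 with the stricter filter, -0.17 when scaled on genes under a 5% share and -0.0931 with background subtracted. Egr2 turned to -0.0485, -0.11, -0.0207, -0.15 and -0.16 in the same fits. Fos turned to -0.01 in each of the last 2 (-0.0069 and -0.0078), and Egr3 to 0.0939 in lane 8 alone. With libraries left out, ratios to Jun ranged from -0.0574 to 0.0078 for Atf3, -0.01 to 0.10 for Jund and -0.078 to 0.0253 for Junb, reversing to 0.0078 for Atf3, to -0.0067 for Jund and to 0.0253, 0.0111 and 0.0141 for Junb. The causes were not tested. Jun, Jund, Atf3, Junb, Fosb and Nr4a1 kept their direction in every fit run that tested them.

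With the replicate block 5 genes were higher and 2 lower, since Egr3 lost its call (-0.58, adjusted p = 0.0639), among 4405 and 5949 genes in all. Same-numbered libraries did not deviate together (correlations -0.213 to 0.16), so the numbers are not taken as pairs. Egr3, Fosb and Nr4a1, at 219 to 364 reads over all libraries, are limited by depth.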
